A study of Mus musculus with 56 samples.

Results

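Hectd2 and Hectd2os are a pair of overlapping genes on mouse chromosome 19 that are read from opposite strands. They were picked out by symbol from the table of liver RNA, so they are 2 of 23813 genes and 3 of 31370 transcripts, with 2 transcripts of Hectd2 (NM_001163471 and NM_172637) and 1 of Hectd2os (NR_033510). The pair was chosen because its RNA levels differ between the groups and move together, and the levels below are therefore given as a description, with no test.

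HECTD2 belongs to the HECT family of E3 ubiquitin ligases, which take ubiquitin from a conjugating enzyme onto a cysteine of their own before passing it to a substrate. Its best known reported substrate is PIAS1, a SUMO ligase that restrains inflammatory signalling. Hectd2os is annotated as a non-coding RNA of the opposite strand. RNAs of that kind can act on the gene they overlap or have no known role, and no role is assigned to this one here.

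RNA-seq was performed on liver from 12 male mice in 3 groups of 4. Hypothyroid WT mice were fed chow low in iodine and containing PTU (propylthiouracil), an inhibitor of thyroid hormone synthesis, and hyperthyroid WT mice received the same diet with injections of triiodothyronine (T3) on its last days, against vehicle in the hypothyroid mice. Hypothyroid L-NCOR1ΔID mice received the PTU diet and express, in liver only, a form of the corepressor NCOR1 that lacks the domains contacting the thyroid hormone receptor. The paper names a mixed genetic background for L-NCOR1ΔID mice, and another, with NIH Black Swiss, for wildtype littermates of a different line. Which of them the WT mice here had is not stated. In the paper's list of animals, not limited to the sequenced mice, L-NCOR1ΔID mice were younger on average than both WT groups, with overlapping spreads. Background and age may therefore differ along with genotype in the L-NCOR1ΔID comparison, and their parts cannot be told apart. The promoter that limits the mutation to liver is not given in the sources used here. Both comparisons use the same 4 hypothyroid WT libraries, and every library combines runs of 2 sequencer models, so that the models could not be compared.

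The libraries held an estimated 21400000 to 42800000 reads, judged from the steps between the lowest values of 231 genes, with the 4 hyperthyroid libraries the shallowest at 21400000 to 26200000. Of 7 genes that report thyroid status, Dio1, Thrsp, Hr, Klf9 and Me1 rose with T3 (Klf9 by 1.17 on the log2 scale, and by 0.93, short of the fold threshold, when libraries were scaled to equal medians of gene ratios), while Thrb and Ncor1 did not pass the test. Hr, at 0.017 to 0.044 RPKM in hypothyroid WT, passed the filter on low values only through the hyperthyroid libraries. Its call therefore supports nothing and is given as a description. Dio1, the deiodinase that marks thyroid status in liver, was between 0.719 and 8.98 RPKM in 3 hypothyroid WT libraries, 57.7 RPKM in replicate 3 and 459 to 641 RPKM in the hyperthyroid libraries. Ncor1 RNA does not check the L-NCOR1ΔID label, since most of the transcript is kept (log2 difference -0.18, standard error, SE, 0.07). The hepatocyte markers Alb, Apoa1, Ttr, Serpina1a, Fga and Tf summed to 41470 to 53687 RPKM in hypothyroid WT, 22879 to 31140 RPKM in hyperthyroid WT and 34968 to 40462 RPKM in L-NCOR1ΔID liver, and these markers of the labelled tissue were thus abundant throughout. By the thresholds given below, Alb and Ttr were called lower with T3, against 3.47% of all genes tested, and Ttr alone with scaled libraries. All 6 Kupffer cell markers were called higher with T3, against 8.28% of all genes tested. Their sum went from 36.9 to 52.6 RPKM to 123 to 205 RPKM, and reached 43.4 to 119 RPKM in L-NCOR1ΔID. Col3a1 (1 of 6 stellate markers tested), Lyve1 (1 of 6 sinusoidal endothelial) and Krt7 (1 of 4 cholangiocyte) were also called higher with T3, against the same 8.28%. The other markers of these lists were not called. The log2 differences ran from -0.19 to 1.13 in the stellate list and from -0.73 to 1.16 in the cholangiocyte list, so that not all markers moved in 1 direction. Stellate markers summed to 45.6 to 64.1, 77.2 to 87.3 and 60.8 to 106 RPKM in the same order, sinusoidal endothelial markers to 42.2 to 62.1, 61.3 to 72.4 and 50.2 to 65.4 RPKM, and cholangiocyte and lymphocyte markers stayed under 5 RPKM in all libraries. No marker list held a gene at 0 in all libraries of a group. In bulk liver, fewer cells of a type and less RNA per cell cannot be told apart, and the part of cell composition in the results below was not tested.

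The locus was placed with GENCODE M1 on mm9, where 8 annotated transcripts of Hectd2 start on the plus strand and 8 of Hectd2os (listed there as 1500017E21Rik) on the minus strand. The full-length Hectd2 transcript Hectd2-001 spans chr19:36629159-36695625, with 21 exons and 4731 bases. The Hectd2os transcript 1500017E21Rik-002 spans chr19:36693908-36763969, with 5 exons and 2662 bases. The genes run towards each other and meet tail to tail. The last exon of Hectd2 (chr19:36693214-36695625) and the last exon of Hectd2os (chr19:36693908-36695982) share 1718 bp, chr19:36693908-36695625, which is 36.3% of Hectd2-001 and 64.5% of the Hectd2os transcript. Whether reads were counted by strand is not given in the sources used here, so that reads from these 1718 bp cannot be assigned to one gene. This bears on every Hectd2 and Hectd2os level given below.

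The sequences just upstream of the starts differ in base composition and are shown for that reason, 5′ to 3′ on the strand of each gene, with CG dinucleotides in capitals. The Hectd2 window is the 250 bases before the outermost start (chr19:36628879-36629128, plus strand, mm9), read from the genome. The Hectd2os window is the 250 bases before the RefSeq start, taken from RefSeq (assembly GRCm38.p6) and found once on chromosome 19 of mm9, at chr19:36763970-36764219 on the minus strand.
Hectd2: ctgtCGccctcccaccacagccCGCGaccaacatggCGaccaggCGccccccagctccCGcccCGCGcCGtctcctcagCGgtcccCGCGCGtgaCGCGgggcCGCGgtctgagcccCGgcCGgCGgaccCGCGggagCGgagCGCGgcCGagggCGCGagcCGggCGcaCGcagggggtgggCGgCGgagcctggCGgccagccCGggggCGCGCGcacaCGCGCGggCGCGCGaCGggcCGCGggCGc
Hectd2os: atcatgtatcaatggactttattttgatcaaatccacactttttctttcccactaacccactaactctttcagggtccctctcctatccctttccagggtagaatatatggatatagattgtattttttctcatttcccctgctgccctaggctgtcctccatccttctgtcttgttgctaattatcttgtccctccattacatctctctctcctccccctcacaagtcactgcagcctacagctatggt
The Hectd2 window held 48 CG dinucleotides and was 84.4% G and C. The Hectd2os window held 0 and was 43.2% G and C. Across 32851 RefSeq windows of the same length the median was 6 CG dinucleotides (quartiles 2 and 16), with 0.186% of windows at or above the Hectd2 count and 7.87% at 0 like that of Hectd2os. Neither window held AGGTCA, the half-site that nuclear receptors read, on either strand, nor TATAAA on the strand of the gene, while 14.0% of RefSeq windows held AGGTCA. A missing match says only that these letters are not in these windows.

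Acetylated histone H3 marks active promoters and enhancers, and the deposited list gives 37200 regions acetylated at H3K27 or H3K9, merged over hypothyroid and hyperthyroid WT liver, with positions only. Therefore, no change in acetylation can be read from it. Within 100 kb of the Hectd2 start lay 10 regions. One of them, chr19:36627480-36630837, held the starts of 7 of the 8 Hectd2 transcripts. The Hectd2os gene overlapped 7 regions that covered 44.0% of its 91590-bp span, while 3 regions covered 9.70% of the Hectd2 span. Starts of Hectd2os fell in 3 of these regions. The RefSeq start lay in chr19:36761646-36764556 and the outermost annotated start in chr19:36775361-36782060. A region of 12791 bp, chr19:36692436-36705226, held the starts of the short forms 1500017E21Rik-003 and 1500017E21Rik-004 together with the shared exon. This was the longest region at the locus, against a median of 2537 bp over all regions, of which 3.74% were at least as long. Of 14 distinct annotated starts of both genes, 12 lay in an acetylated region. Which of the Hectd2os starts the liver uses was not tested, since the table holds 1 transcript of the gene.

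**Figure D1:**
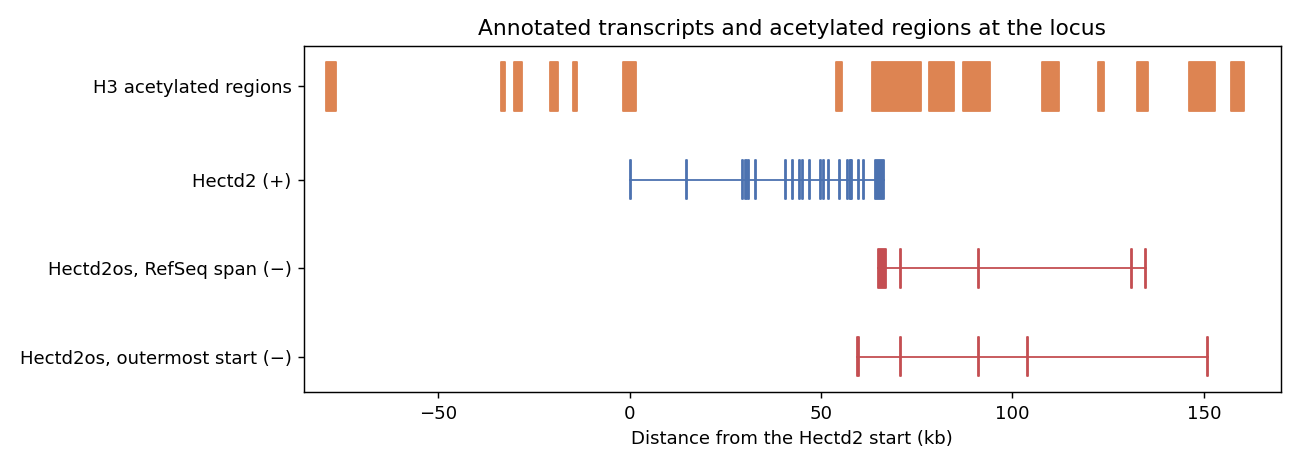
Exons (boxes) and introns (lines) of Hectd2-001 and of 2 annotated Hectd2os transcripts, with the deposited H3 acetylated regions, by distance in kb from the outermost Hectd2 start. The 3′ ends of the genes overlap by 1718 bp, and 7 acetylated regions overlap the Hectd2os gene.

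Hectd2os was one of the abundant RNAs of hypothyroid liver and was nearly lost with T3. Hypothyroid WT replicates 1 to 4 had 143, 99.0, 115 and 131 RPKM. Hyperthyroid WT replicates 1 to 4 had 1.72, 1.67, 1.60 and 1.48 RPKM. The lowest hypothyroid library was thus 57.7-fold above the highest hyperthyroid library, and the groups did not overlap. The means were 122 ± 19.2 RPKM (SD, n = 4) and 1.62 ± 0.103 RPKM (SD, n = 4). In hypothyroid WT liver 1.86% of genes had a higher mean, and in hyperthyroid WT liver 41.2% did. The remaining level rested on about 91 to 115 reads per hyperthyroid library, against about 8277 to 13389 in hypothyroid WT, so that counting error is small beside the change. On the log2(RPKM + 0.1) scale the fitted difference was -6.14 (SE 0.11), the fourth lowest of 13941 genes tested.

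The table shows the same pattern for Hectd2 at a lower level. Hypothyroid WT replicates 1 to 4 had 61.5, 43.8, 50.8 and 57.0 RPKM of NM_001163471. Hyperthyroid WT replicates 1 to 4 had 1.84, 1.68, 1.82 and 1.35 RPKM. Again the groups were far apart, with the lowest hypothyroid library 23.8-fold above the highest hyperthyroid library. The means were 53.2 ± 7.69 RPKM (SD, n = 4) and 1.67 ± 0.224 RPKM (SD, n = 4), and the log2 difference was -4.91 (SE 0.13). The second Hectd2 transcript, NM_172637, differed from the first by 0.0103% to 0.517% per library and adds no independent measurement.

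Without hypothyroid WT replicate 3, which had the high Dio1 level, the log2 differences with T3 were -6.17 for Hectd2os and -4.93 for Hectd2. As background for the gene lists below, 1639 of 13941 genes tested were called with T3 (11.8%, limma, Benjamini-Hochberg adjusted p below 0.01 and a change of more than 1 on the log2 scale). Of these, 1155 (8.28% of those tested, and 70.5% of those called) were higher and 484 (3.47%) lower. At an unadjusted p under 0.05, 42.9% of all genes were higher and 13.6% lower. When libraries were scaled to equal medians of gene ratios, the share that was higher became 52.4% and the median of all genes moved from 0.23 to 0.01 on the log2 scale, with 24.8% higher and 25.7% lower at an unadjusted p under 0.05. The differences of both genes, given above without that scaling, were then -6.37 and -5.14.

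In hypothyroid L-NCOR1ΔID liver both RNAs lay between the other groups and varied more from mouse to mouse. Hectd2os was at 47.0, 21.4, 66.2 and 77.1 RPKM in replicates 1 to 4 (52.9 ± 24.4 RPKM, SD, n = 4), a 3.59-fold range against 1.44-fold in hypothyroid WT. Hectd2 was at 20.8, 9.74, 28.9 and 34.2 RPKM (23.4 ± 10.6 RPKM, SD, n = 4). The highest L-NCOR1ΔID library was below the lowest hypothyroid WT library for both genes, by 1.29-fold for Hectd2os and 1.28-fold for Hectd2, and the lowest was above all hyperthyroid libraries. The share of all genes whose groups do not overlap was not counted, here or with T3, so that the separation is a description only.

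The log2 differences from hypothyroid WT were -1.34 (SE 0.35) for Hectd2os and -1.32 (SE 0.34) for Hectd2. They were -0.96 and -0.94 without L-NCOR1ΔID replicate 2, the library with the lowest values. Of the thyroid status genes, that library also had the lowest Thrsp of its group, 454 RPKM against 779 to 1081 RPKM, and the lowest Me1, 16.8 RPKM against 42.0 to 49.8 RPKM. Its Thrb (6.21 RPKM) and Ncor1 (12.1 RPKM) were lowest as well. Its Dio1 (0.591 RPKM), Klf9 (24.4 RPKM) and Hr (0.077 RPKM) were not, with lowest values of 0.567, 22.3 and 0.038 RPKM elsewhere in the group. The part of this library in the spread was not tested further. At an adjusted p under 0.01, 175 of 13790 genes were called in L-NCOR1ΔID (1.27%, limma), of which 75 were lower (0.544%), and 12.8% were higher and 7.77% lower at an unadjusted p under 0.05. The number of calls, 175 with neither Hectd2 nor Hectd2os among them, changed when 1 library was left out, which also leaves fewer libraries in the fit. It fell to 89, 67, 68 and 67 without hypothyroid WT replicate 1, 2, 3 or 4. Without L-NCOR1ΔID replicate 1, 2 or 3 it fell to 97, 117 and 74, and without replicate 4 it rose to 187. Set against each other, hyperthyroid WT was lower than hypothyroid L-NCOR1ΔID by a log2 difference of -4.80 (SE 0.34) for Hectd2os and -3.59 (SE 0.34) for Hectd2, a contrast in which both thyroid state and genotype differ.

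**Figure D2:**
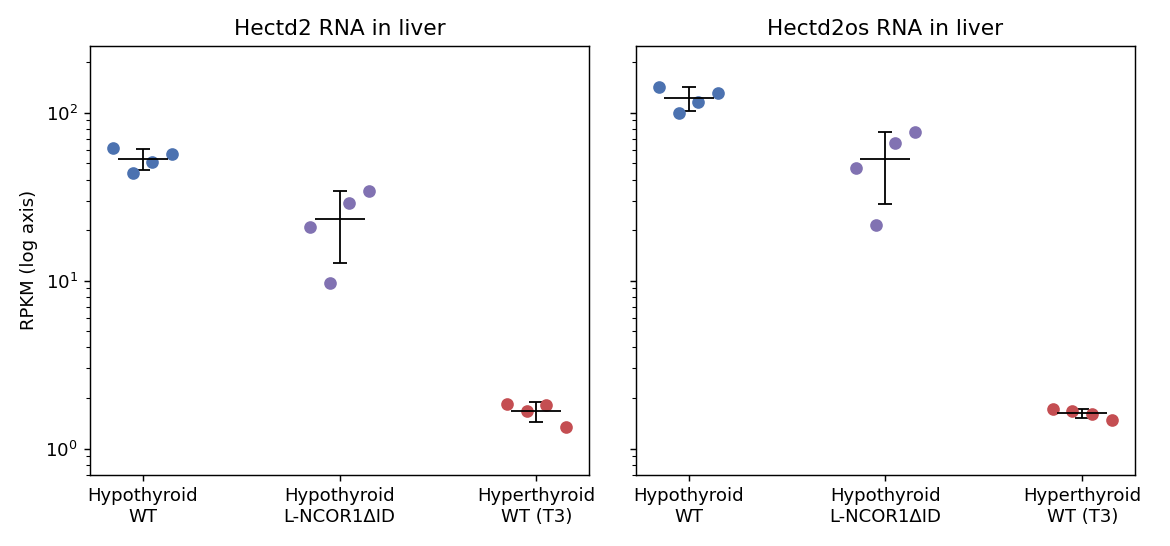
RPKM of Hectd2 (NM_001163471) and Hectd2os on a log axis, 1 point per library and replicates 1 to 4 from left to right, with the mean (bar) and SD (whiskers) of the 4 libraries of each group. The 3 groups do not overlap for either gene, and the L-NCOR1ΔID libraries spread most.

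Library by library the 2 genes kept nearly one ratio in every hypothyroid mouse. Hectd2 was 0.429 to 0.442 of Hectd2os in the 4 hypothyroid WT libraries and 0.436 to 0.454 in the 4 L-NCOR1ΔID libraries, although the levels themselves spanned several-fold. In the 8 hypothyroid libraries the order of the libraries by Hectd2 and by Hectd2os was the same. With T3 the ratio was 0.914 to 1.13. Hectd2os minus Hectd2 was 1.19 ± 0.02 on the log2 scale in hypothyroid WT, 1.17 ± 0.03 in L-NCOR1ΔID and -0.04 ± 0.13 in hyperthyroid WT (SD, n = 4 each). The gap between the genes thus moved by -1.23 with T3 and by -0.03 in L-NCOR1ΔID. The latter is about the size of the spread between mice.

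A straight line through the 12 libraries had a slope of 0.427 RPKM of Hectd2 per RPKM of Hectd2os and crossed zero Hectd2os at 0.928 RPKM of Hectd2. Libraries lay off this line by at most 0.629 RPKM (residual SD 0.389 RPKM). The line through the 8 hypothyroid libraries alone had a slope of 0.429 and an intercept of 0.773 RPKM. The points fall into separate groups, so no correlation is given. If reads were counted without regard to strand and lay evenly along Hectd2os, each RPKM of Hectd2os would add 0.363 RPKM to Hectd2. If all Hectd2os reads lay in the shared exon, it would add 0.563 RPKM. Whether reads were counted in this way was not tested.

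Taking off the even share, 0.363 of Hectd2os, left 8.87 ± 0.755 RPKM of Hectd2 in hypothyroid WT, 4.18 ± 1.79 in L-NCOR1ΔID and 1.09 ± 0.193 in hyperthyroid WT (SD, n = 4 each). The T3 difference of Hectd2 was then -2.93 in place of -4.91 and the L-NCOR1ΔID difference -1.18 in place of -1.32. Taking off the fitted slope of 0.427 left 1.02 RPKM in hypothyroid WT, 0.783 RPKM in L-NCOR1ΔID and 0.981 RPKM in hyperthyroid WT, values that the fit itself draws together. The log2 differences of Hectd2 were then 0.12 with T3 and -0.21 in L-NCOR1ΔID. The sign with T3 comes from averaging log2 values per library, since the group mean itself was not higher with T3. The table therefore does not fix how much of the Hectd2 change belongs to Hectd2. The reverse correction changes less. Reads lying evenly along Hectd2 would add 0.645 RPKM to Hectd2os per RPKM of Hectd2, and taking this off left 87.8 ± 14.2 RPKM of Hectd2os in hypothyroid WT, 37.8 ± 17.5 in L-NCOR1ΔID and 0.538 ± 0.0793 in hyperthyroid WT (SD, n = 4 each). The T3 difference of Hectd2os was then -7.10. These corrections were chosen after seeing the data. Each even-share correction takes the counted level of the other gene as free of shared reads, so that those of Hectd2 and of Hectd2os cannot hold at once. Reads counted without regard to strand would add to both genes together, and each correction would then take off too much. A joint correction was not made.

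**Figure D3:**
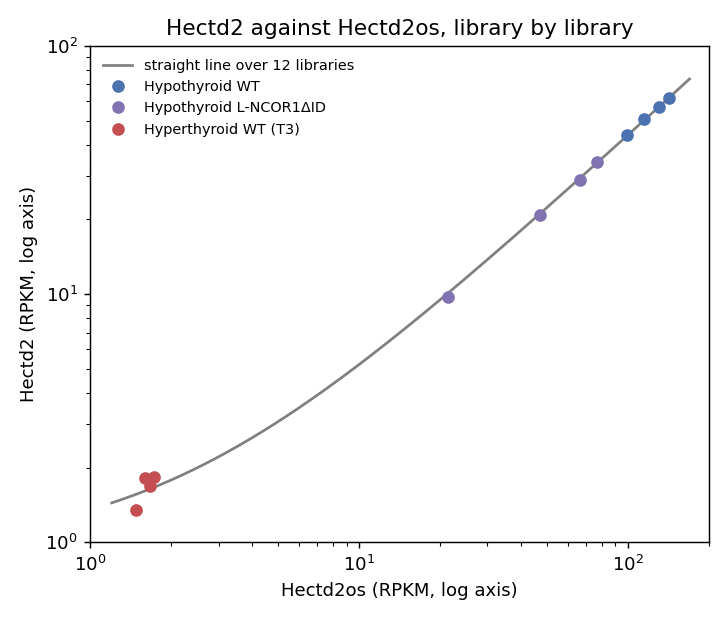
Hectd2 against Hectd2os in RPKM for the 12 libraries, both axes logarithmic, with the straight line fitted on the linear scale (slope 0.427, intercept 0.928 RPKM). The 8 hypothyroid libraries follow the line from 21.4 to 143 RPKM of Hectd2os, and the 4 hyperthyroid libraries sit together near 1.6 RPKM.

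No other HECT ligase tested was called in either comparison. RPKM allows levels to be compared between genes per length. Hectd2 as counted ranked second of 27 HECT ligases in hypothyroid WT, behind Nedd4 at 63.8 RPKM, with the other 26 at a median of 9.26 RPKM. It ranked second in L-NCOR1ΔID and 22 in hyperthyroid WT, where Nedd4 stood at 62.6 RPKM and the median of the others at 11.0 RPKM. After taking off the even share of Hectd2os as counted, 8.87 RPKM of Hectd2 remained in hypothyroid WT, against the median of 9.26 RPKM of the others. This remainder carries the limits of that correction.

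Of the 26 other HECT ligases 25 were tested, all but Hecw1, and limma called 0 with T3, against 11.8% of all genes, and 0 in L-NCOR1ΔID, against 1.27%. Their log2 differences with T3 ran from -0.51 (Herc3) to 0.75 (Herc6), with a median of 0.28 against 0.23 over all genes tested. At an unadjusted p under 0.05, 16 were higher and 3 lower with T3, and 2 higher and 2 lower in L-NCOR1ΔID, against the shares of all genes given above. With libraries scaled to equal medians these counts were 7 higher and 5 lower with T3, with a median difference of 0.06, and 1 higher and 2 lower in L-NCOR1ΔID. Without the fold threshold, 8 passed an adjusted p of 0.01 with T3, all of them higher, but 2 higher and 3 lower did so with libraries scaled to equal medians. The share of all genes passing without the fold threshold was not counted, so that these counts are a description only. Herc6, which carries RCC1-like repeats beside its HECT domain, had 2.05 ± 0.0623 RPKM in hypothyroid and 3.61 ± 0.942 RPKM in hyperthyroid WT (n = 4 each, limma adjusted p = 0.0058, and 0.055 with a log2 difference of 0.52 with scaled libraries). Herc2, a very large ligase of the DNA damage response, had 4.50 ± 0.371 and 6.99 ± 0.611 RPKM (n = 4 each, limma adjusted p = 0.00071, log2 difference 0.62, and 0.39 with scaled libraries).

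Genes of proteins that work with HECT ligases gave 0 calls of 11 in both comparisons (limma), against 11.8% and 1.27% of all genes. At an unadjusted p under 0.05, 6 were higher and 1 lower with T3 and 1 was lower in L-NCOR1ΔID. With scaled libraries 3 were higher and 4 lower with T3, so that the balance of directions turned with the scaling, and 1 was lower in L-NCOR1ΔID. The ubiquitin-conjugating enzyme Ube2e1 had 14.7 ± 0.724 RPKM in hypothyroid and 24.4 ± 2.98 RPKM in hyperthyroid WT (log2 difference 0.72, SE 0.09, limma adjusted p = 0.00032), short of the fold threshold. Ndfip2, which activates NEDD4-type ligases, had 18.3 ± 2.56 and 25.8 ± 0.630 RPKM (log2 difference 0.50, SE 0.10, and 0.26 with a limma adjusted p of 0.045 with scaled libraries). None of the 4 PIAS genes was called, and at an unadjusted p under 0.05 1 was higher with T3 and 0 in L-NCOR1ΔID, while with scaled libraries 0 were higher and 3 lower with T3. These counts stand against the shares of all genes given above. The median log2 difference of the 4 PIAS genes with T3 was -0.05, and -0.29 with scaled libraries, so that it was negative in both. Pias1, the gene of the reported HECTD2 substrate, had 3.93 ± 0.126 RPKM in hypothyroid WT, 4.56 ± 0.425 in hyperthyroid WT and 4.07 ± 0.396 in L-NCOR1ΔID (SD, n = 4 each), and its log2 difference with T3 was -0.03 with scaled libraries. RNA says nothing of PIAS1 protein, on which a ubiquitin ligase acts. Pias3 had 2.54 ± 0.407, 2.18 ± 0.256 and 3.11 ± 0.347 RPKM in the same groups.

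**Figure D4:**
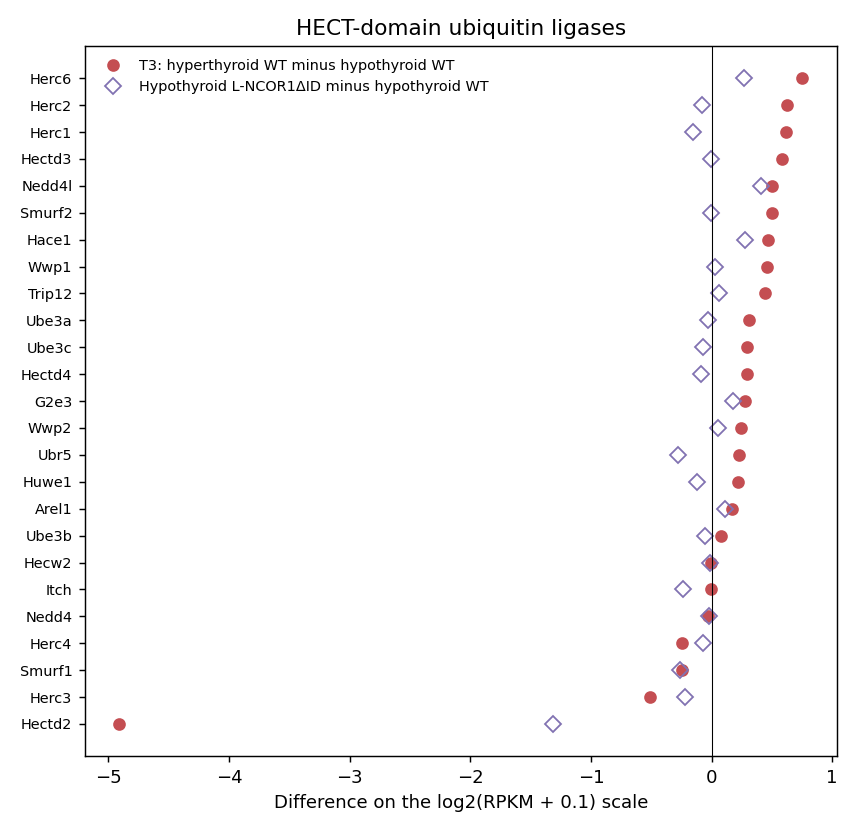
Difference on the log2(RPKM + 0.1) scale for Hectd2 and 24 of the 25 other HECT ligases tested, with T3 (filled circles) and in L-NCOR1ΔID (open diamonds), each against hypothyroid WT (means of 4 libraries per group). With T3 the other ligases plotted lie between -0.51 and 0.75, and Hectd2 as counted lies at -4.91.

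Of 8 genes of the table that start within 500 kb of the Hectd2 start 6 were tested, and 1 was called with T3 and 0 in L-NCOR1ΔID (limma, 0 also at an unadjusted p under 0.05), against 11.8% and 1.27% of all genes. The gene called was Ppp1r3c, a glycogen-targeting subunit of protein phosphatase that starts 182 kb from the Hectd2 start, beyond Hectd2os. It had 27.7 ± 2.99 RPKM in hypothyroid WT and 7.12 ± 2.28 RPKM in hyperthyroid WT (n = 4 each, log2 difference -1.99, SE 0.20, limma adjusted p = 9.6e-05). In L-NCOR1ΔID it had 34.4 ± 19.8 RPKM, from 14.4 to 61.1 RPKM. Its L-NCOR1ΔID mean was thus not below that of hypothyroid WT, unlike those of Hectd2 and Hectd2os.

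On the other side, Pcgf5, a Polycomb group protein that starts 176 kb upstream, had 4.35 ± 0.301 RPKM in hypothyroid WT and 3.66 ± 0.523 RPKM in hyperthyroid WT (log2 difference -0.25, SE 0.12, limma adjusted p = 0.10, and -0.48 with an adjusted p of 0.0031 with scaled libraries). Tnks2, a tankyrase, had 9.63 ± 0.686 and 13.5 ± 0.934 RPKM. Btaf1, an ATPase that removes TBP from DNA, had 4.31 ± 0.500 and 6.57 ± 0.643 RPKM. Both reached an adjusted p under 0.01 without the fold threshold (limma, 0.0013 and 0.0022), but not with scaled libraries (0.024 and 0.019). How many of all genes did so without the fold threshold was not counted. Rpp30, a subunit of RNase P, had 2.81 ± 0.315 and 3.81 ± 0.689 RPKM, and Fgfbp3 had 0.172 ± 0.0692 and 0.108 ± 0.0671 RPKM (n = 4 each). Htr7 and Ankrd1 were too low to test, with at most 0.023 and 0.181 RPKM in any library.

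Other genes listed with an opposite-strand partner were examined in the same way. Of 135 such pairs besides that of Hectd2 51 had both genes tested, and in 4 (7.84%) both were called with T3, while in 6 only one gene was, against single genes called at 11.8% over the table. In L-NCOR1ΔID 0 pairs had both genes called (limma, against 1.27% of single genes). Both genes had an unadjusted p under 0.05 (limma) in 8 of 51 pairs in L-NCOR1ΔID and in 15 of 51 with T3. Of single genes, 12.8% were higher and 7.77% lower at that level in L-NCOR1ΔID, and 42.9% and 13.6% with T3. No share over other pairs of genes was counted, so that these numbers are a description only. The same limit on strand holds for these pairs where their exons overlap. Dio3, the enzyme that inactivates thyroid hormones, and Dio3os were the 1 pair lower with T3. Dio3os had 5.00 ± 3.40 RPKM in hypothyroid WT (1.69 to 8.26 RPKM) and at most 0.062 RPKM in hyperthyroid WT. Dio3 had 0.103 to 0.649 RPKM in hypothyroid WT and was listed at 0 in the 4 hyperthyroid libraries. Dio3 passed the filter on low values only through the hypothyroid WT libraries, as did Dio3os, so that their call supports nothing and is given as a description.

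The other 3 pairs were higher with T3. Tnk2, a non-receptor tyrosine kinase, rose from 3.65 ± 1.56 to 20.5 ± 2.41 RPKM and Tnk2os from 0.152 ± 0.0265 to 0.702 ± 0.231 RPKM (n = 4 each). Bach2, a transcriptional repressor, had 0.855 ± 0.260 and 2.06 ± 0.319 RPKM beside Bach2os with 0.509 ± 0.172 and 1.10 ± 0.148 RPKM. Peg3, an imprinted zinc finger gene, had 1.62 ± 0.744 and 3.86 ± 0.743 RPKM beside Peg3os with 1.64 ± 0.565 and 4.03 ± 0.890 RPKM. The Bach2 and Peg3 pairs lost their calls when libraries were scaled to equal medians. The Dio3 pair was not called without hypothyroid WT replicate 1, 2, 3 or 4, with a pseudocount of 1, without a filter or at a mean of at least 1 RPKM. Leaving out any hypothyroid WT replicate, or asking for that mean, takes Dio3 out of the fit. Those losses were therefore fixed in advance and say nothing of stability. The number of pairs was 1 without hypothyroid WT replicate 1 or 4, and 2 without hyperthyroid WT replicate 3 or 4.

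The genes with levels most like those of the pair over the 12 libraries were taken by the smallest root mean square difference of centred log2 values among 10662 genes of at least 1 RPKM on average. For Hectd2 these were Gm12718 (0.44), Mup21 (0.46), Cyp4a12a (0.58), Hectd2os (0.58) and Aqp4 (0.59). For Hectd2os they were Mup21 (0.57), Hectd2 (0.58), Gm12718 (0.73), Cyp2c23 (0.75) and Etnppl (0.75). Hectd2os was therefore not the closest gene to Hectd2 by this measure, since its range over the libraries is wider, 6.50 against 5.40 on the log2 scale.

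Mup21, a major urinary protein, had 212 to 489 RPKM in hypothyroid WT, 82.5 to 334 in L-NCOR1ΔID and 8.44 to 13.2 in hyperthyroid WT. Cyp4a12a, a fatty acid hydroxylase of male liver, had 203 to 217, 30.3 to 120 and 5.27 to 19.2 RPKM. Gm12718, a gene model without a known product, had 5.91 to 9.04, 1.13 to 5.12 and 0.058 to 0.148 RPKM. L-NCOR1ΔID replicate 2, the lowest library of its group for the pair, was also the lowest for Mup21, Cyp4a12a and the water channel Aqp4 (1.63 RPKM against 2.90 to 5.98 RPKM). It was not the lowest for Gm12718, for the arachidonate epoxygenase Cyp2c23 or for Etnppl, which breaks down phosphoethanolamine. These genes were taken for their likeness to the pair over the same libraries. A shared lowest library is therefore partly built into the choice and adds no support. Cyp2c23 differed most from the pair in L-NCOR1ΔID, with 227 to 289 RPKM against 260 to 345 RPKM in hypothyroid WT and 2.42 to 7.88 RPKM in hyperthyroid WT.

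**Figure D5:**
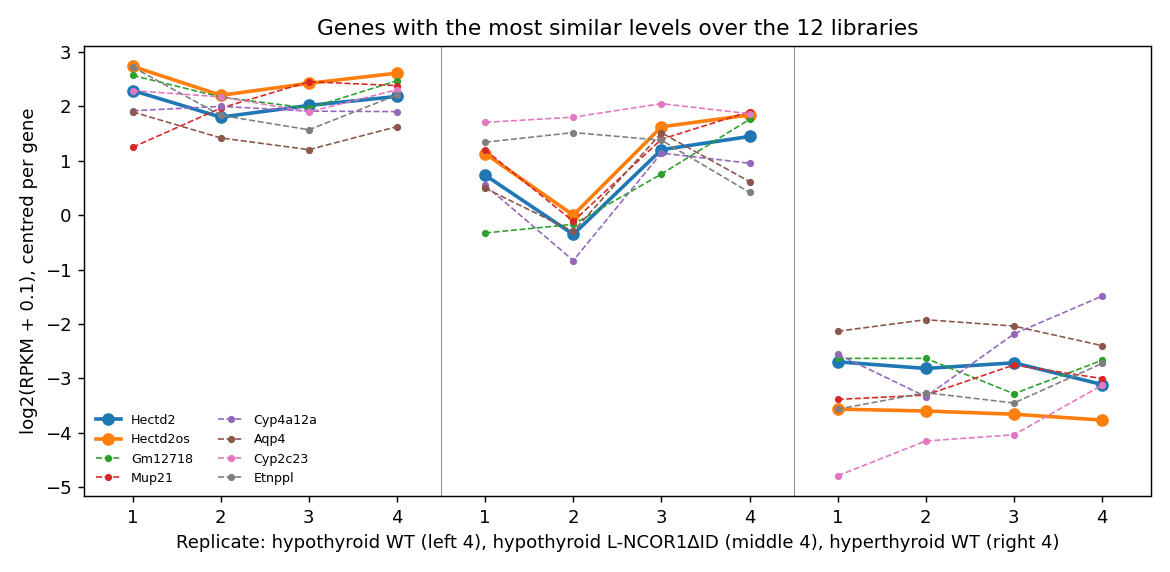
log2(RPKM + 0.1), centred on the mean of each gene over the 12 libraries, for Hectd2, Hectd2os and the 6 other genes nearest to either of them. Lines only join the points of 1 gene within a group, and L-NCOR1ΔID replicate 2 is the lowest of its group for both Hectd2 and Hectd2os.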

How the data were processed

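Poly(A) RNA from 12 mouse livers was sequenced. Per the labels and the study's methods, the authors aligned reads to mm9 with STAR and quantified RefSeq transcripts by means of HOMER. The deposited unit is RPKM, the reads of a transcript divided by its length and by the size of the library. Versions and the counting strand are not given in the sources used here. The deposited acetylated regions (H3K27 and H3K9, called with HOMER and merged by the authors) hold positions only. The remaining ChIP-seq data and the ratios of the authors' own DESeq2 comparisons were not used here. Values of 1 gene are not reported here.

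The table has 0 unused columns of per-sample values and 1 row without a gene name (at most 0.00079% of summed RPKM), which was dropped. The first listed transcript stood for each gene. Differences were fitted with limma 3.58.1 (R 4.3.3) after adding 0.1 RPKM and taking log2, with the trend option and adjustment by Benjamini and Hochberg, on the 2 groups compared and on genes of at least 0.1 RPKM in at least 4 libraries. A fold change on this scale understates the change of low genes. A gene was called at an adjusted p below 0.01 and, for T3, a change of more than 1 on the log2 scale. In the deepest and shallowest libraries 0.1 RPKM equals 4.28 and 2.14 reads per kilobase. The procedure was tested on simulated data. Replicates are separate mice per the labels. Positions came from GENCODE M1 (mm9), and other computations used Python 3.11.15, numpy 2.4.6 and pandas 2.3.3, with figures drawn in matplotlib 3.10.9.

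The pair, the gene lists and the rule for named genes were chosen with earlier results of these data known. The rule takes all rows of the pair, the 5 genes with the most similar levels per gene, the HECT, partner and PIAS genes called or, of those uncalled, the 2 with the largest change, neighbours within 500 kb, thyroid status genes and opposite-strand pairs called together. Alternatives were a pseudocount of 1 or 0.01, median scaling, the transcript with the highest mean, no filter, a mean of at least 1 RPKM, no trend, 1 fit of 12 libraries, the replicate number as a block, an adjusted p under 0.05, other distances and each library left out.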

Additional observations from a re-analysis of the deposited data

Results flagged for a closer look

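Of 117 sets of 4 libraries examined (the transcripts and ratio of the pair and the named genes, by group), 11 had 1 library far from the other 3 by Dixon's test at its 95% critical value, against about 1 in 20 by chance. No set of Hectd2, Hectd2os or their ratio was among them. In hypothyroid WT these were Dio1 at 57.7 RPKM against 0.719 to 8.98, Cyp4a12a at 217 RPKM against 203 to 205, Btaf1 at 3.57 RPKM against 4.48 to 4.64 and Htr7 at 0.010 RPKM against 0. In hyperthyroid WT they were Gm12718 at 0.058 RPKM against 0.142 to 0.148, Ndfip2 at 24.9 RPKM against 26.0 to 26.2, Pias1 at 5.19 RPKM against 4.30 to 4.45 and Peg3os at 2.71 RPKM against 4.33 to 4.64. In L-NCOR1ΔID they were Hr at 0.327 RPKM against 0.038 to 0.077, Peg3os at 1.61 RPKM against 0.510 to 0.636 and Htr7 at 0.008 RPKM against 0.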

How the results depend on the processing

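Taking the fitted slope times Hectd2os off Hectd2 turned its T3 difference to 0.12 and that between hyperthyroid WT and L-NCOR1ΔID to 0.34, and left -0.21 in L-NCOR1ΔID, where the fit itself draws the groups together. The 0.12 is a difference of mean log2 values, while the mean remainder was 1.02 RPKM in hypothyroid and 0.981 RPKM in hyperthyroid WT. No difference of Hectd2 or Hectd2os changed direction in the other alternatives given here. With a pseudocount of 1 the T3 differences were -4.34 (Hectd2) and -5.54 (Hectd2os), and with median scaling -5.14 and -6.37. Taking off the shared exon gave -2.93 for Hectd2 and -7.10 for Hectd2os with T3, and -1.76 and -5.75 for hyperthyroid WT against L-NCOR1ΔID. Leaving out 1 library at a time gave -5.00 to -4.82 and -6.24 to -6.06 with T3, -1.55 to -0.94 and -1.57 to -0.96 in L-NCOR1ΔID, -3.96 to -3.36 and -5.18 to -4.57 between the outer groups, and -1.29 to -1.19 and -0.04 to -0.02 for the gap between the genes. Genes called with T3 were 894 with a pseudocount of 1 and 1430 to 1583 with 1 library left out. Genes called in L-NCOR1ΔID were 43 without a filter, 601 at an adjusted p under 0.05 and 67 to 187 with 1 library left out. With 1 choice changed at a time, the number of HECT ligases called was 0 and that of neighbours 1 with T3 and 0 in L-NCOR1ΔID. With 1000 kb and scaled libraries together, an alternative chosen after seeing the data, 2 neighbours were called with T3, Ppp1r3c and Hhex. Opposite-strand pairs called with T3 were 0 with a pseudocount of 1, 2 with median scaling, 1 without a filter, 1 at a mean of at least 1 RPKM and 1 to 5 with 1 library left out. Acetylated regions numbered 5 within 50 kb and 20 within 200 kb, and 4 held a start also when 100 bp to each side had to lie inside.

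Whether replicate numbers pair the mice is not given, and the main fits used no pairing. Same-numbered libraries correlated at -0.07 to 0.08 for T3 and -0.15 to 0.18 for L-NCOR1ΔID. In both comparisons replicates 1 and 3 were closest to their own number, and the others were not. So few libraries cannot settle the question. The number as a block left the differences of the pair at -4.91 and -6.14 with T3 and at -1.32 and -1.34 in L-NCOR1ΔID, and gave 1506 genes called with T3 and 45 in L-NCOR1ΔID. The SE in L-NCOR1ΔID moved from 0.34 to 0.24 for Hectd2 and from 0.35 to 0.25 for Hectd2os. About 91 reads stand behind the lowest Hectd2os value.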
